A study of Mus musculus with 21 samples.

Results

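The genes described here are the ligands and receptors of the epidermal growth factor (EGF) receptor family in sorted cells of the mouse stomach corpus. They were chosen by name, with earlier results of these data known: the ligands Egf, Tgfa, Areg, Ereg, Hbegf and Btc, the receptors Egfr, Erbb2 and Erbb3, and Errfi1, whose protein binds and inhibits the activated EGF receptor. Of these 10 genes, 9 had a row of their own on the array, among 22180 genes tested in all, and Areg is not analysed here.

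EGF receptor ligands are made as membrane-anchored precursors, which proteases cut to release the soluble factor. Binding makes the receptors pair, and the paired receptors signal through Ras, the MAP kinase cascade and other routes to transcription factors of the cell nucleus, several of whose target genes encode inhibitors that dampen the signal again. Erbb2 has no known ligand of its own and works as a partner of the other receptors, while Erbb3 has a weak kinase and depends on such a partner. In the stomach, ligands of this family are known for their part in epithelial growth and repair and, for Tgfa, in the excess of mucous surface cells seen when it is overproduced.

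The study sorted corpus cells by flow cytometry according to a green fluorescent reporter of Lgr5 (Lgr5GFP), a receptor that marks stem cells in several gut epithelia and in the corpus is found in a subset of chief cells, and hybridised their RNA to a gene array. Mice had received 0.27 mg of tamoxifen per g of body weight 24 hours before, a dose that injures the corpus epithelium and its acid-secreting parietal cells, or were uninjected controls. Tamoxifen mice gave 4 arrays each of Lgr5GFP high, Lgr5GFP low and Lgr5GFP negative cells, and control mice 3 arrays of each population, 21 in all. No group received vehicle alone, so effects of tamoxifen cannot be told apart from those of the injection or of the runs in which the mice were sorted, and the labels used here name no strain, sex, age or reporter allele. The submitters describe the arrays of a group as technical replicates from individual sorting runs, so the p-values measure only the spread between these samples, which may be technical. The numbers in the array titles are read here as those sorting runs, an inference that no label states.

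The source label of the 3 control Lgr5GFP negative arrays reads low, while their title and cell population label read negative; they are treated as negative here. Lgr5 itself lay at 8.43, 6.70 and 4.59 (log2 signal, group means) in high, low and negative cells of tamoxifen mice and at 8.79, 7.56 and 4.41 in those of control mice. In the low cells Lgr5 was lower in tamoxifen than in control mice (log2 difference -0.86 ± 0.21 SE, adjusted p = 0.011), so the low gate did not hold cells of equal Lgr5 RNA level in both treatments. The gastric lineages were present: of 8 parietal cell markers 7 were above background in each control population, and of 6 chief cell markers 5 were in every group. All values are log2 signals, on which a difference of 1 is a 2-fold difference. A mean at or below 4.16, the 95th percentile of the means of 1105 olfactory receptor genes, is taken as background. A gene is called where its adjusted p is under 0.05, and ± is the SE of a difference or the SD of a level. In sorted bulk samples, fewer cells of a type and less RNA per cell cannot be told apart.

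The promoters of the 4 genes called between treatments in Lgr5GFP low cells are shown, because these genes moved in that population in opposite directions, Egf down and the others up. Each is the RefSeq window from 250 bases before to 50 after the annotated start (300 bases, GRCm38.p6, read on the gene's strand). Capitals mark the first transcribed base and, in Egfr, a match just before it to the GC box. The windows are Egf chr3:129755273-129755572 (minus strand, the outermost of its starts), Btc chr5:91402945-91403244 (minus), Egfr chr11:16751953-16752252 (plus) and Erbb2 chr11:98412234-98412533 (plus).
Egf: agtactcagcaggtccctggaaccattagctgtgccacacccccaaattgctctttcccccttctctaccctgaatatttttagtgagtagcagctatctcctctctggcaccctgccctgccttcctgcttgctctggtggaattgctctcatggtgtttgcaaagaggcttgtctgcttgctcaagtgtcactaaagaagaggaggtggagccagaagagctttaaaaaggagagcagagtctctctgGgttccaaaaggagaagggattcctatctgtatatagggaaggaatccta
Btc: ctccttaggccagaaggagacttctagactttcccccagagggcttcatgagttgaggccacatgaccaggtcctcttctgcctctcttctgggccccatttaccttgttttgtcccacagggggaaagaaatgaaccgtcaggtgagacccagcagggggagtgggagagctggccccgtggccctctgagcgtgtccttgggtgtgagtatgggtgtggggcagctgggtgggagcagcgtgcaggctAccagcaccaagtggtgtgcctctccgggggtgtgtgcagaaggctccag
Egfr: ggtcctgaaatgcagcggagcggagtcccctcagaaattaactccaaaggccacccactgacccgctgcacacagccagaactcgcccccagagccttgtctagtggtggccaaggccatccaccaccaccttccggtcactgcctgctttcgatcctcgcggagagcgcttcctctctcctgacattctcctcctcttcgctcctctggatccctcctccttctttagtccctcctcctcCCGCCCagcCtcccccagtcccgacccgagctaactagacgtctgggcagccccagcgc
Erbb2: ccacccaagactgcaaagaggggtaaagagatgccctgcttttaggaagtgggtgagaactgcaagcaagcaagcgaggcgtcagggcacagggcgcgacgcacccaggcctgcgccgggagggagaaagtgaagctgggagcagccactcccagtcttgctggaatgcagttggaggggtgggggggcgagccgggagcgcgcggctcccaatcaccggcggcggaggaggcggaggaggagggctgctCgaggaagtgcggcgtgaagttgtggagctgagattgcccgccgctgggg
The Egf window holds 49.0% G and C, against 60.3% in Btc, 62.3% in Egfr and 66.0% in Erbb2, where the median of 32851 promoter windows is 52.7%. On both strands, 4 motifs were searched: the GC box GGGCGG, the CRE TGACGTCA, the AP-1 site TGANTCA and the TATA box TATAAA, none of which is contained in another. They occur in 35.7%, 1.79%, 7.81% and 13.6% of all windows in that order, and the GC box of Egfr was the only match in these 4 windows.

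The first comparison asks what changed in each sorted population 24 hours after tamoxifen. Egf was lower, and Erbb2 higher, in Lgr5GFP high cells of tamoxifen mice. In Lgr5GFP low cells Egf was again lower, and Btc, Egfr and Erbb2 were higher. In Lgr5GFP negative cells Hbegf was higher. The members called were 2 of 9 in high cells, 4 of 9 in low cells and 1 of 9 in negative cells, where 2.73%, 8.32% and 2.32% of all genes were called. The median log2 difference of the 9 members was 0.78 in high cells, 0.81 in low cells and 0.20 in negative cells, beside 0.00, 0.01 and -0.00 for all genes tested. At an unadjusted p under 0.05, 6, 6 and 2 members passed. The share of all genes at that threshold is not given here, so these counts have no background. Because the members were chosen with earlier results of these data known, the shares of all genes only describe the setting and test nothing about the list.

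**Figure D1:**
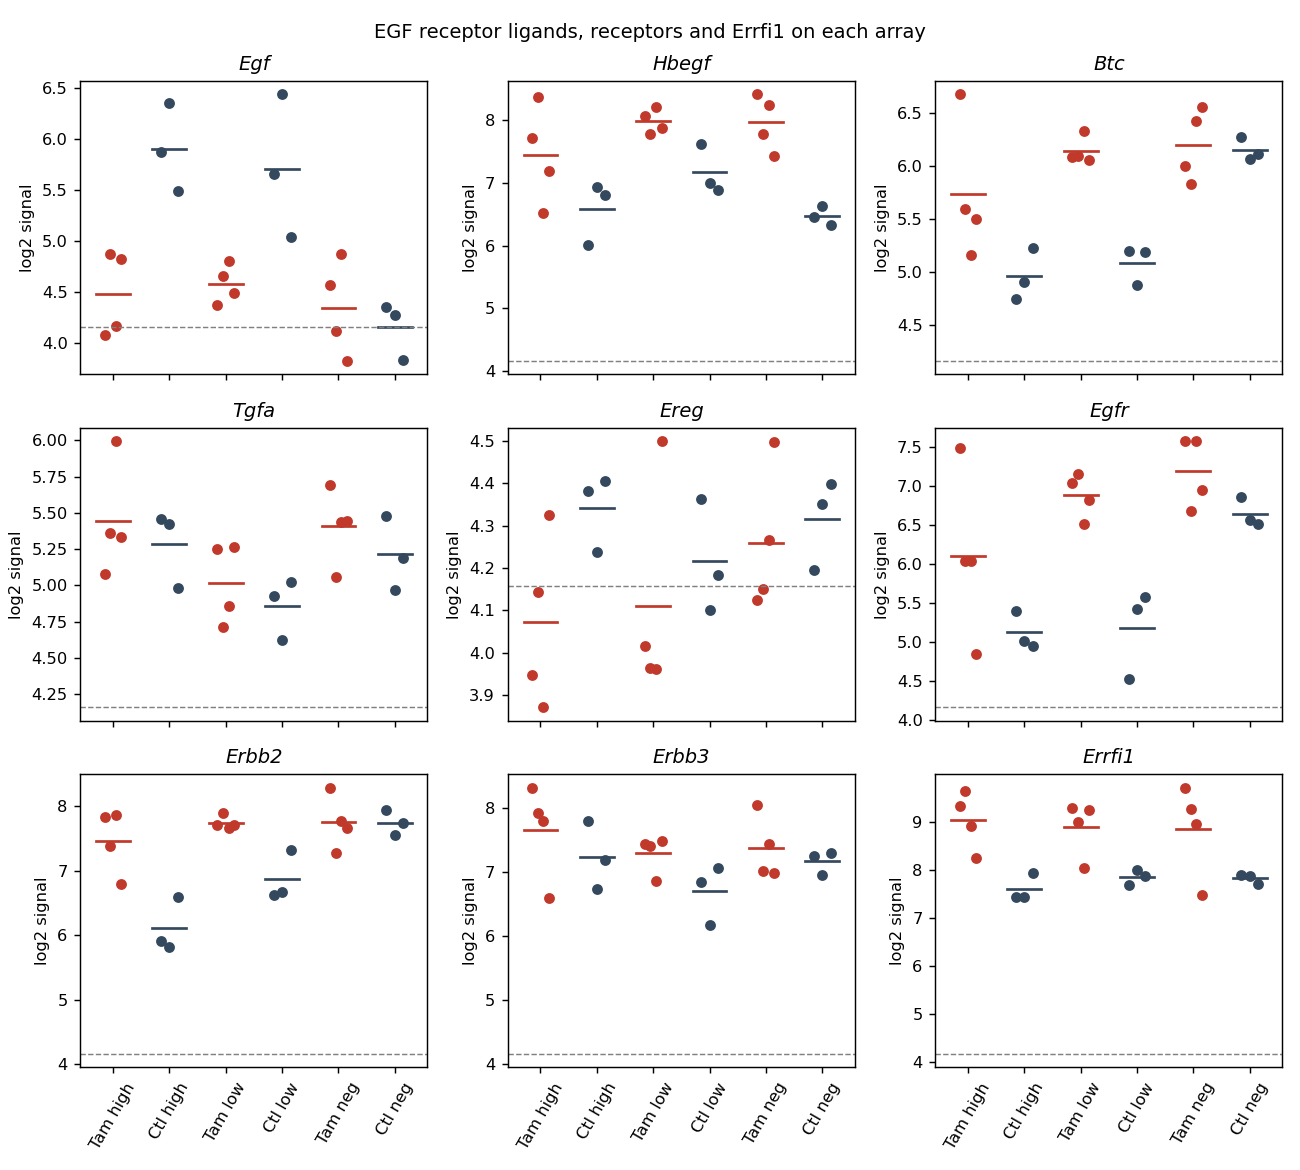
Log2 signal (y axis) of each of the 9 genes on each of 21 arrays, grouped by treatment and sorted population (x axis; Tam, tamoxifen in red; Ctl, control in dark blue); bars are group means and the dashed line is the background guide of 4.16. Egf stands above 5 only in control high and low cells, and Btc, Egfr and Erbb2 show the opposite order.

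Egf, the ligand that names the family, measured 4.08, 4.87, 4.16 and 4.82 in Lgr5GFP high cells of tamoxifen mice, against 5.87, 6.35 and 5.49 in those of control mice. In Lgr5GFP low cells it was 4.37, 4.65, 4.80 and 4.49 in tamoxifen mice and 5.65, 6.44 and 5.04 in control mice. The groups did not overlap in either population, and the tamoxifen arrays lay close to the background guide. The log2 difference was -1.42 ± 0.30 in high cells (adjusted p = 0.0151) and -1.13 ± 0.30 in low cells (adjusted p = 0.0217), which are 2.67-fold and 2.19-fold lower levels. In Lgr5GFP negative cells Egf was 4.57, 4.12, 4.87 and 3.82 in tamoxifen mice and 4.35, 4.28 and 3.83 in control mice. There it was at or near background in both treatments (difference 0.19, adjusted p = 0.869), which leaves little room below. The share of all genes called lower was 1.04% in high, 2.98% in low and 0.703% in negative cells.

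The Egf calls depended on single arrays. In high cells the call was lost without control array 1 (adjusted p = 0.056) or control array 2 (difference -1.19, adjusted p = 0.0927), and also when only the 7 high arrays entered the fit (adjusted p = 0.144). In low cells it was lost without tamoxifen array 1, control array 1 or control array 2, the last of which gave -0.77 (adjusted p = 0.179). Its sign was the same without each array in turn, from -1.63 to -1.19 in high and from -1.47 to -0.77 in low cells.

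Btc, betacellulin, binds Egfr and the related receptor Erbb4. In low cells it measured 6.09, 6.09, 6.34 and 6.06 in tamoxifen mice, against 5.20, 4.87 and 5.19 in control mice, a gap with no overlap (difference 1.06 ± 0.26, 2.08-fold, adjusted p = 0.0121). In high cells it was 6.68, 5.60, 5.16 and 5.5 in tamoxifen mice and 4.74, 4.90 and 5.23 in control mice. Here the groups overlapped by a single tamoxifen array, and the difference of 0.78 ± 0.26 did not pass (adjusted p = 0.11). In negative cells it was 6.0, 5.83, 6.43 and 6.56 in tamoxifen mice and 6.28, 6.07 and 6.11 in control mice, a difference of 0.05 (95% interval -0.48 to 0.59). The call in low cells was lost without control array 2 (0.95, adjusted p = 0.0692), and Btc was called in high cells without tamoxifen array 3 (0.97, adjusted p = 0.0428). For high cells this was 1 of 7 such fits, with a highest adjusted p of 0.323.

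Hbegf, heparin-binding EGF-like growth factor, is a ligand known to be induced rapidly in wounded epithelia. In negative cells it measured 8.42, 7.78, 8.25 and 7.43 in tamoxifen mice, against 6.46, 6.63 and 6.33 in control mice. Every tamoxifen array was above every control array (difference 1.5 ± 0.33, 2.82-fold, adjusted p = 0.0175), and 1.62% of all genes were called higher there. In low cells it was 8.07, 7.78, 8.21 and 7.87 in tamoxifen mice and 7.62, 7.0 and 6.90 in control mice, again without overlap, but the difference of 0.81 ± 0.33 did not pass (adjusted p = 0.148). It passed with array weights (0.90, adjusted p = 0.0359) and with only the compared groups in the fit (adjusted p = 0.0304). In high cells the values were 7.72, 8.37, 6.52 and 7.20 in tamoxifen mice and 6.01, 6.93 and 6.81 in control mice, overlapping, with a difference of 0.87 ± 0.33 (adjusted p = 0.171). Leaving out single arrays gave 1.35 to 1.68 in negative cells and a call in 2 of 7 such fits, with a highest adjusted p of 0.0982. In high cells, Hbegf was called without tamoxifen array 3 (1.18, adjusted p = 0.0388), which was 1 of 7 such fits (highest adjusted p 0.504).

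Tgfa and Ereg gave no call in any comparison. Tgfa, transforming growth factor alpha, ranged from 4.62 to 6.0 over all arrays, and its differences between treatments were 0.16, 0.16 and 0.20 in high, low and negative cells, with 95% intervals that reached from -0.29 to 0.64 at their widest ends. Ereg, epiregulin, lay between 3.87 and 4.50 in its brighter row and between 3.67 and 4.59 in its other row, around the background guide in every group, so these arrays bound rather than measure it. Its treatment differences were -0.27, -0.11 and -0.06 (adjusted p = 0.407, 0.768 and 0.932).

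Egfr, the receptor for all of these ligands, measured 7.03, 7.16, 6.51 and 6.82 in Lgr5GFP low cells of tamoxifen mice, against 4.53, 5.43 and 5.57 in those of control mice. The groups were separated by nearly a whole log2 unit (difference 1.71 ± 0.40, 3.3-fold, adjusted p = 0.00977), and 5.35% of all genes were called higher in these cells. Of all genes called there 64.2% were higher, a split that a cyclic loess between arrays moved to 50.7%, while Egfr stayed called. In high cells the tamoxifen arrays spread widely, at 7.49, 6.04, 6.04 and 4.85, against 5.40, 5.02 and 4.94 in control mice. Tamoxifen array 4 lay below every control array there, and the difference of 0.98 ± 0.40 did not pass (adjusted p = 0.205). Without that array, picked for its low value, it was 1.40 (adjusted p = 0.0178). Egfr was called in high cells in 1 of 7 such fits, with a highest adjusted p of 0.471. In negative cells Egfr was 7.57, 6.68, 7.58 and 6.94 in tamoxifen mice and 6.86, 6.56 and 6.51 in control mice, overlapping (difference 0.55, 95% interval -0.28 to 1.38). In low cells the call was lost without control array 1 (1.38, adjusted p = 0.0804).

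Erbb2, the partner receptor, was called in both Lgr5GFP populations. High cells gave 7.83, 7.39, 7.87 and 6.79 in tamoxifen mice, against 5.91, 5.82 and 6.59 in control mice, without overlap (difference 1.36 ± 0.26, 2.57-fold, adjusted p = 0.00754), where 1.70% of all genes were called higher. Low cells gave 7.71, 7.90, 7.67 and 7.71 in tamoxifen mice and 6.63, 6.67 and 7.32 in control mice, also without overlap (difference 0.87 ± 0.26, 1.83-fold, adjusted p = 0.0435). Negative cells gave 8.29, 7.28, 7.77 and 7.67 in tamoxifen mice and 7.94, 7.56 and 7.75 in control mice, a difference of 0.00 (95% interval -0.55 to 0.55). The call in high cells was lost without control array 2 (adjusted p = 0.0541) and with only the high arrays in the fit (adjusted p = 0.189). The call in low cells remained in 1 of 7 fits that left out an array, with differences of 0.75 to 1.10 and a highest adjusted p of 0.188, and was lost after a cyclic loess between arrays (0.70, adjusted p = 0.0601).

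Erbb3, which pairs with Erbb2 and binds neuregulins, ranged from 6.17 to 8.31 and was not called. Its treatment differences were 0.42, 0.60 and 0.21 in high, low and negative cells (SE 0.34 each), and the groups overlapped in all 3 populations.

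Errfi1, also known as Mig6, is induced by EGF receptor signalling and shuts the receptor off. In high cells it measured 9.32, 9.64, 8.92 and 8.25 in tamoxifen mice, against 7.43, 7.43 and 7.93 in control mice. In low cells it was 9.28, 8.99, 8.02 and 9.24 in tamoxifen mice and 7.68, 8.0 and 7.86 in control mice. In negative cells the values were 9.71, 9.26, 8.96 and 7.47 in tamoxifen mice and 7.90, 7.88 and 7.70 in control mice. The groups did not overlap in high and low cells, and in negative cells a single tamoxifen array lay below the controls. The differences of 1.44 ± 0.40, 1.04 ± 0.40 and 1.02 ± 0.40 all missed the threshold (adjusted p = 0.0568, 0.124 and 0.257). Leaving out the lowest tamoxifen array gave a call in each population: without array 4 in high cells (1.70, adjusted p = 0.0145), without array 3 in low cells (1.32, adjusted p = 0.0467) and without array 4 in negative cells (1.48, adjusted p = 0.00912). That array was picked for its low value, so the larger difference follows from the choice. Errfi1 was called in 1 of 7 such fits in each population, with highest adjusted p of 0.183, 0.298 and 0.595.

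**Figure D2:**
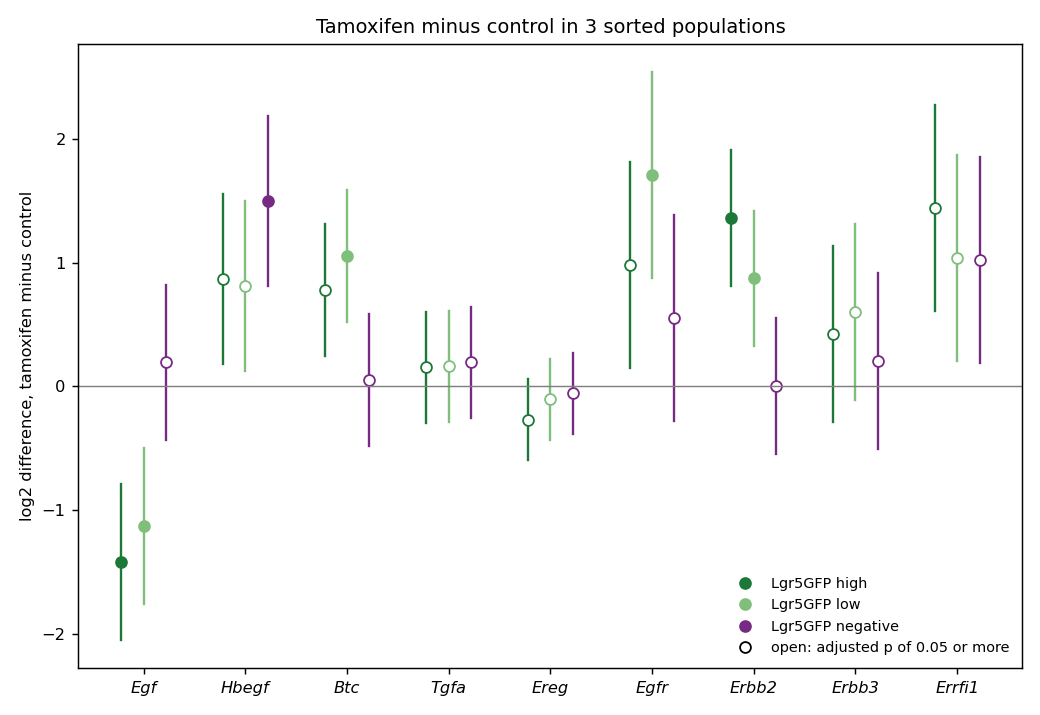
Log2 difference, tamoxifen minus control (y axis), of the 9 genes (x axis) in Lgr5GFP high, low and negative cells; lines are 95% intervals from the fit over 21 arrays, and filled points have an adjusted p under 0.05. Egf lies below 0 in high and low cells, Hbegf, Egfr, Erbb2 and Errfi1 lie above 0 there, and 7 of the 27 points are filled.

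Markers of several corpus cell types moved with the treatment. The mean log2 signal of the 8 parietal cell markers was 5.44 to 6.36 in high cells of tamoxifen mice and 6.80 to 7.13 in those of control mice. In low cells it was 6.79 to 7.40 in tamoxifen mice and 8.25 to 8.85 in control mice, and in negative cells 5.80 to 6.86 in tamoxifen mice and 6.86 to 7.36 in control mice. In low cells, the 6 chief cell markers averaged 8.11 to 8.44 in tamoxifen mice and 9.29 to 9.62 in control mice, and the 6 tuft cell markers 4.98 to 6.56 in tamoxifen mice and 7.94 to 9.25 in control mice. The 6 surface pit cell markers ran the other way in low cells, at 9.17 to 10.02 in tamoxifen mice and 8.10 to 9.02 in control mice, while in negative cells they were 11.28 to 11.72 in tamoxifen mice and 11.90 to 11.94 in control mice. In high cells the tuft cell markers averaged 7.06 to 9.75 in tamoxifen mice and 9.71 to 10.45 in control mice. In negative cells they averaged 5.28 to 6.42 in tamoxifen mice and 6.35 to 7.49 in control mice. The tuft ranges of the treatments overlapped at their ends in both of these populations. The 5 mucous neck cell markers averaged 7.83 to 9.58 in low cells of tamoxifen mice and 9.93 to 10.81 in those of control mice. In negative cells they averaged 7.93 to 8.99 in tamoxifen mice and 10.2 to 10.53 in control mice, with 3 of the 5 called lower there and 2 in low cells. The 6 endocrine cell markers averaged 6.40 to 8.49 in low cells of tamoxifen mice and 8.87 to 10.15 in those of control mice, with 2 of the 6 called lower. In negative cells they averaged 10.45 to 11.51 in tamoxifen mice and 9.10 to 9.58 in control mice, with 1 called higher. The chief cell markers of negative cells averaged 7.76 to 8.05 in tamoxifen mice and 8.26 to 8.53 in control mice. In high cells the treatments also overlapped for the surface pit, chief, mucous neck and endocrine lists, given as tamoxifen against control. Surface pit markers averaged 6.57 to 8.63 against 7.40 to 8.81, and chief cell markers 8.06 to 8.65 against 8.39 to 9.37. Mucous neck markers averaged 8.72 to 10.79 against 8.97 to 11.15, and endocrine markers 4.95 to 7.94 against 5.92 to 6.28. The mean of the 5 endothelial markers was at or under 3.74 on every array, and at most 1 of the 5 was above background in any group. Of 6 measured immune cell markers, 4 were above background in tamoxifen high, tamoxifen negative and control negative cells. In control high cells 3 were, and 2 in low cells of both treatments. Of 7 fibroblast and smooth muscle markers, 5 were above background in control high and control negative cells. Low cells of both treatments had 4, tamoxifen high cells 3 and tamoxifen negative cells 2. The part of these cell types in the differences of the EGF receptor genes was not tested.

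The second comparison asks how the sorted populations differ within a treatment. In control mice Egf was higher, and Btc, Egfr and Erbb2 were lower, in Lgr5GFP high cells than in negative cells, 4 of 9 members where 12.3% of all genes were called (4.64% higher, 7.66% lower). Egf differed by 1.75 ± 0.32 (adjusted p = 0.000828), and since the negative cells were at background this is at least 3.35-fold. Erbb2 differed by -1.64 ± 0.28 (3.12-fold lower, adjusted p = 0.00043), Egfr by -1.52 ± 0.43 (2.87-fold lower, adjusted p = 0.0206) and Btc by -1.20 ± 0.27 (2.29-fold lower, adjusted p = 0.00505). High and negative arrays did not overlap for any of the 4. The calls of Egf, Btc and Erbb2 held without each of the 6 arrays in turn, while that of Egfr was kept in 1 of 6 such fits (-1.66 to -1.41, highest adjusted p 0.0837). Cell type markers differed between these populations too. In control mice the surface pit cell markers averaged 7.40 to 8.81 in high, 8.10 to 9.02 in low and 11.90 to 11.94 in negative cells. In the same order, tuft cell markers averaged 9.71 to 10.45, 7.94 to 9.25 and 6.35 to 7.49. Endocrine markers averaged 5.92 to 6.28, 8.87 to 10.15 and 9.10 to 9.58. Parietal markers averaged 6.80 to 7.13, 8.25 to 8.85 and 6.86 to 7.36. Chief cell markers averaged 8.39 to 9.37, 9.29 to 9.62 and 8.26 to 8.53, and mucous neck markers 8.97 to 11.15, 9.93 to 10.81 and 10.2 to 10.53. The part of cell types in the population differences was not tested.

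Egf, Btc and Egfr were also called between low and negative cells of control mice, with the signs they had in high cells. Egf was at least 2.93-fold higher (1.56 ± 0.32, adjusted p = 0.00643), Btc 2.09-fold lower (-1.07 ± 0.27, adjusted p = 0.0257) and Egfr 2.77-fold lower (-1.47 ± 0.43, adjusted p = 0.0493). Erbb2, at -0.88 ± 0.28, was not called (adjusted p = 0.0804), although its low and negative arrays did not overlap. With the number in the titles as a block, the Erbb2 difference passed (adjusted p = 0.0343) and that of Btc did not (adjusted p = 0.0505). The Egfr difference did not pass with eBayes with trend and robust (adjusted p = 0.0514). Erbb2 also passed with the replicate number as a block (adjusted p = 0.0442), with array weights (adjusted p = 0.012) and with only the compared groups in the fit (adjusted p = 0.035). That makes 3 of 9 members, where 5.27% of all genes were called (1.85% higher, 3.41% lower). The Egf call was lost without control low array 2 (1.19, adjusted p = 0.0536), and those of Btc and Egfr were each kept in 1 of 6 fits that left out an array (highest adjusted p 0.114 and 0.287), while Erbb2 was called in 1 of them. Within each of the 3 sorting runs of control mice, Egf was higher and Btc, Egfr and Erbb2 were lower in high and in low cells than in negative cells. The within-run differences from negative cells were 1.52 to 2.07 for Egf and -2.02 to -1.15 for Erbb2 in high cells, and 1.20 to 2.16 and -1.31 to -0.43 in low cells.

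In the main fit, which does not pair the runs, no member was called between high and low cells of control mice (1.34% of all genes). With the number in the titles as a block, 370 in place of 297 genes were called, and results for single members are not given here. Erbb2 was lower in high cells in 3 of 3 runs, by 0.71 to 0.86 log2 units. Such agreement was not particular to Erbb2: Hbegf was also lower, and Ereg and Erbb3 were higher, in 3 of 3 runs. At an unadjusted p under 0.05, 1 of the 9 passed, a count again given without the share of all genes. The other members, Hbegf, Tgfa, Ereg, Erbb3 and Errfi1, were not called between any populations of control mice.

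In tamoxifen mice no member was called between populations. The background was 10.3% of all genes between high and negative cells (3.33% higher, 6.97% lower) and 2.24% between low and negative cells. Between high and low cells it was 3.22% (45.2% of the calls higher, or 64.4% after a cyclic loess). An unadjusted p under 0.05, whose share of all genes is not given, was reached by 1, 0 and 2 members. Egf differed from negative cells by 0.14 ± 0.28 in high and 0.23 ± 0.28 in low cells of these mice, and Erbb2 by -0.28 ± 0.24 and -0.01 ± 0.24. Btc differed by -0.47 ± 0.24 and -0.06 ± 0.24. Egfr differed by -1.09 ± 0.37 between high and negative cells (adjusted p = 0.0667), and -0.31 ± 0.37 between low and negative cells. Btc and Egfr passed the threshold between high and negative cells once tamoxifen high array 1, the brightest for both, was left out (-0.79 and -1.55, adjusted p = 0.00629 and 0.00159). Each was called in 1 of 8 such fits (highest adjusted p 0.52 and 0.216).

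**Figure D3:**
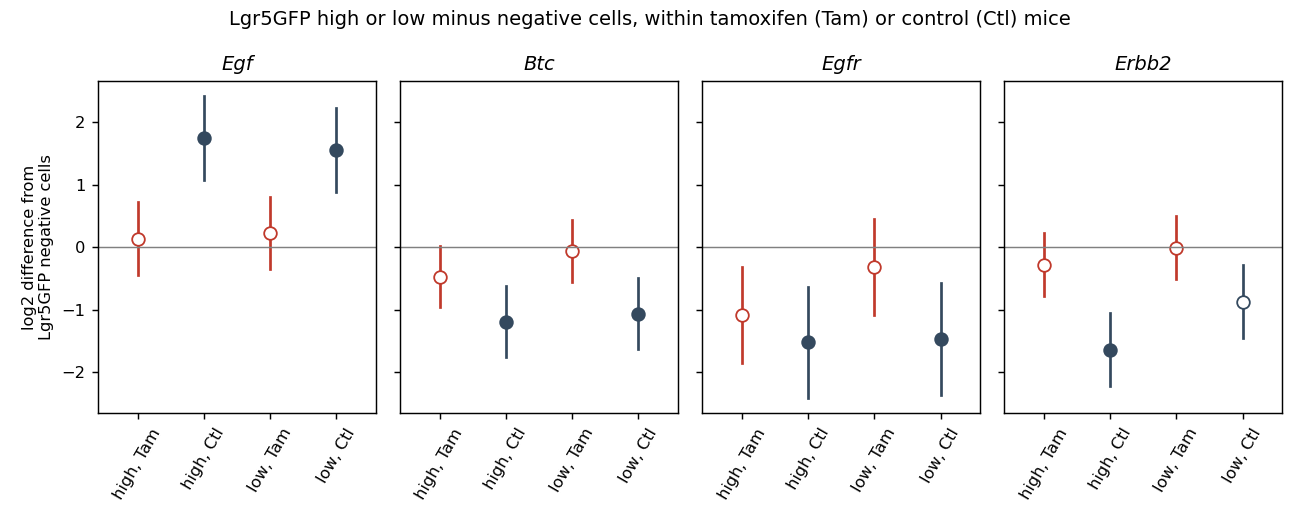
Log2 difference of Lgr5GFP high or low cells from negative cells (y axis) for Egf, Btc, Egfr and Erbb2, within tamoxifen mice (red, Tam) and control mice (dark blue, Ctl); lines are 95% intervals and filled points have an adjusted p under 0.05. The control points stand away from 0 for all 4 genes, and 3 of the 4 genes have tamoxifen points whose intervals include 0.

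The difference between these patterns was tested as an interaction, that is, the tamoxifen effect in one population minus that in another. No member passed: 0 of 9 for high minus negative, low minus negative and high minus low cells, where 0.248%, 0.839% and 0.0271% of all genes passed. An unadjusted p under 0.05, whose share of all genes is not given, was reached by 2, 3 and 0 members. For high minus negative cells the interaction was -1.61 ± 0.43 for Egf (adjusted p = 0.139), 1.36 ± 0.37 for Erbb2 (adjusted p = 0.154), 0.72 ± 0.36 for Btc and 0.43 ± 0.56 for Egfr. For low minus negative cells it was -1.32 ± 0.43 for Egf (adjusted p = 0.208), 1.01 ± 0.36 for Btc (adjusted p = 0.3), 1.16 ± 0.56 for Egfr (adjusted p = 0.556) and 0.87 ± 0.37 for Erbb2 (adjusted p = 0.453). For high minus negative cells Erbb2 passed without tamoxifen high array 4 (adjusted p = 0.0391) and Egf without tamoxifen negative array 4 (adjusted p = 0.0416). Each passed in 1 of 14 such fits (highest adjusted p 0.384 and 0.365). An effect confined to Lgr5GFP cells was therefore not shown for any of them. The treatment comparisons, population comparisons and interactions are made from the same 21 arrays and share groups, so a high or low control group enters several of them at once.

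Ordered by group mean, Egf ran from control high (5.90) and control low (5.71) to tamoxifen low (4.58), tamoxifen high (4.48), tamoxifen negative (4.35) and control negative (4.15), and the 4 lowest means lay within the spread of their arrays. Egfr ran from tamoxifen negative (7.19 ± 0.45), tamoxifen low (6.88 ± 0.28) and control negative (6.64 ± 0.19) through tamoxifen high (6.10 ± 1.08) to control low (5.17 ± 0.56) and control high (5.12 ± 0.25). Erbb2 had 4 groups between 7.47 and 7.75, the 3 tamoxifen groups and control negative, above control low (6.87 ± 0.39) and control high (6.11 ± 0.42). Btc had tamoxifen negative, control negative and tamoxifen low between 6.14 and 6.20, then tamoxifen high (5.73 ± 0.66), control low (5.09 ± 0.18) and control high (4.96 ± 0.25). Hbegf had tamoxifen low (7.99 ± 0.19) and tamoxifen negative (7.97 ± 0.45) above tamoxifen high (7.45 ± 0.79), control low (7.17 ± 0.39), control high (6.58 ± 0.50) and control negative (6.47 ± 0.15). The arrays of neighbours in these orders overlapped, except for Egf in tamoxifen low and control low cells, which is a called difference, and Erbb2 in control high and control low cells, which is not.

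Of 65 further genes of the pathway, 59 had a row and 52 of these had a mean above background. Between treatments, 6 were higher and 0 lower in high cells, where 1.70% of all genes were called higher and 1.04% lower. In low cells 10 were higher and 1 lower, against 5.35% and 2.98% of all genes, and in negative cells 3 were higher and 0 lower, against 1.62% and 0.703%. Their median log2 differences were 0.20, 0.12 and 0.12. These lists too were chosen with earlier results known, so the shares of all genes are given as a description. No pathway gene passed in any interaction.

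Of 14 measured genes listed as induced by MAP kinase signalling, 4 were called higher in high cells, 5 in low cells and 3 in negative cells. Of all genes, 1.70%, 5.35% and 1.62% were called higher there. None of the 14 was called lower. The calls were 4 of the 6 pathway genes called in high cells, 5 of the 11 in low cells and 3 of the 3 in negative cells. In the separate list of 11 MAP kinase feedback inhibitors, 1 was called higher and 1, Dusp6, lower in low cells, and 0 in high and negative cells. Ier3, an immediate early gene that affects cell survival, averaged 8.03 in low cells of tamoxifen mice and 5.53 in those of control mice (difference 2.50 ± 0.39, adjusted p = 0.00038). Its differences were 1.52 in high cells (adjusted p = 0.04, groups overlapping) and 1.61 in negative cells (adjusted p = 0.0309). Plaur, the urokinase receptor, showed the widest change of the pathway genes, with 7.51 in low cells of tamoxifen mice and 4.89 in those of control mice (2.62 ± 0.42, adjusted p = 0.000491). In negative cells Plaur averaged 8.27 in tamoxifen mice and 5.09 in control mice (3.19 ± 0.42, adjusted p = 0.000312). Myc, a growth-promoting transcription factor, averaged 6.92 in high cells of tamoxifen mice and 5.04 in those of control mice (1.88 ± 0.30, adjusted p = 0.00179), and in low cells 7.79 in tamoxifen mice and 6.21 in control mice (1.58 ± 0.30, adjusted p = 0.00206). Egr1, a zinc finger immediate early factor, was called in all 3 populations (1.23, 1.49 and 1.38). Junb, a subunit of the AP-1 factor, was called in high cells (0.94, adjusted p = 0.0284) and in low cells (0.78).

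Some of those calls rest on few arrays. Without each array in turn, Myc kept its call in 7 of 7 fits in high and in low cells, as did Ier3, Plaur and Egr1 in low cells and Plaur in negative cells. In high cells Ier3 and Egr1 were called in 2 of 7 such fits and Junb in 3 of 7, and in negative cells Ier3 and Egr1 in 1 of 7. The low-cell call of Junb was kept in 1 of 7 and was lost after a cyclic loess. With only the high arrays in the fit, none of the high-cell calls remained for Lrig3, Myc, Junb, Ier3, Egr1 or Rhbdf1.

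Among the 7 sheddases that release ligands and their partners, Rhbdf1, which encodes an inactive rhomboid protein that guides the sheddase Adam17, was higher in high cells (0.76 ± 0.19, adjusted p = 0.0394) and low cells (1.04 ± 0.19, adjusted p = 0.00179) of tamoxifen mice. Its relative Rhbdf2 was higher in low cells (1.26 ± 0.34, adjusted p = 0.0219). The call of Rhbdf1 in low cells held in 7 of 7 fits that left out an array, its call in high cells in 2 of 7 and that of Rhbdf2 in 3 of 7. No sheddase or partner was called in negative cells.

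Of 11 genes that act on receptor turnover, Lrig3, a membrane protein of a family that includes receptor-degrading members, was higher in high cells (6.29 in tamoxifen and 4.91 in control mice, 1.38 ± 0.31, adjusted p = 0.019; called in 3 of 7 fits that left out an array). Cblc, which encodes a ubiquitin ligase of the Cbl family, was higher in low cells (7.42 in tamoxifen and 6.10 in control mice, 1.32 ± 0.28, adjusted p = 0.00503; called in 7 of 7). Of 11 MAP kinase feedback inhibitors, Dusp6, a phosphatase of ERK, was lower in low cells (8.83 in tamoxifen and 9.78 in control mice, -0.96 ± 0.20, adjusted p = 0.0038), the only pathway gene called lower between treatments. Spred1, an inhibitor of Ras signalling, was higher there (1.06 ± 0.29, adjusted p = 0.0264; called in 3 of 7). Of 10 adaptors and cascade kinases, Nras was higher in low cells (0.69 ± 0.20, adjusted p = 0.0295; called in 3 of 7). Of 6 genes for other ErbB ligands and the receptor Erbb4, none was called between treatments, and 1 of them, Nrg4, had a mean above background.

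**Figure D4:**
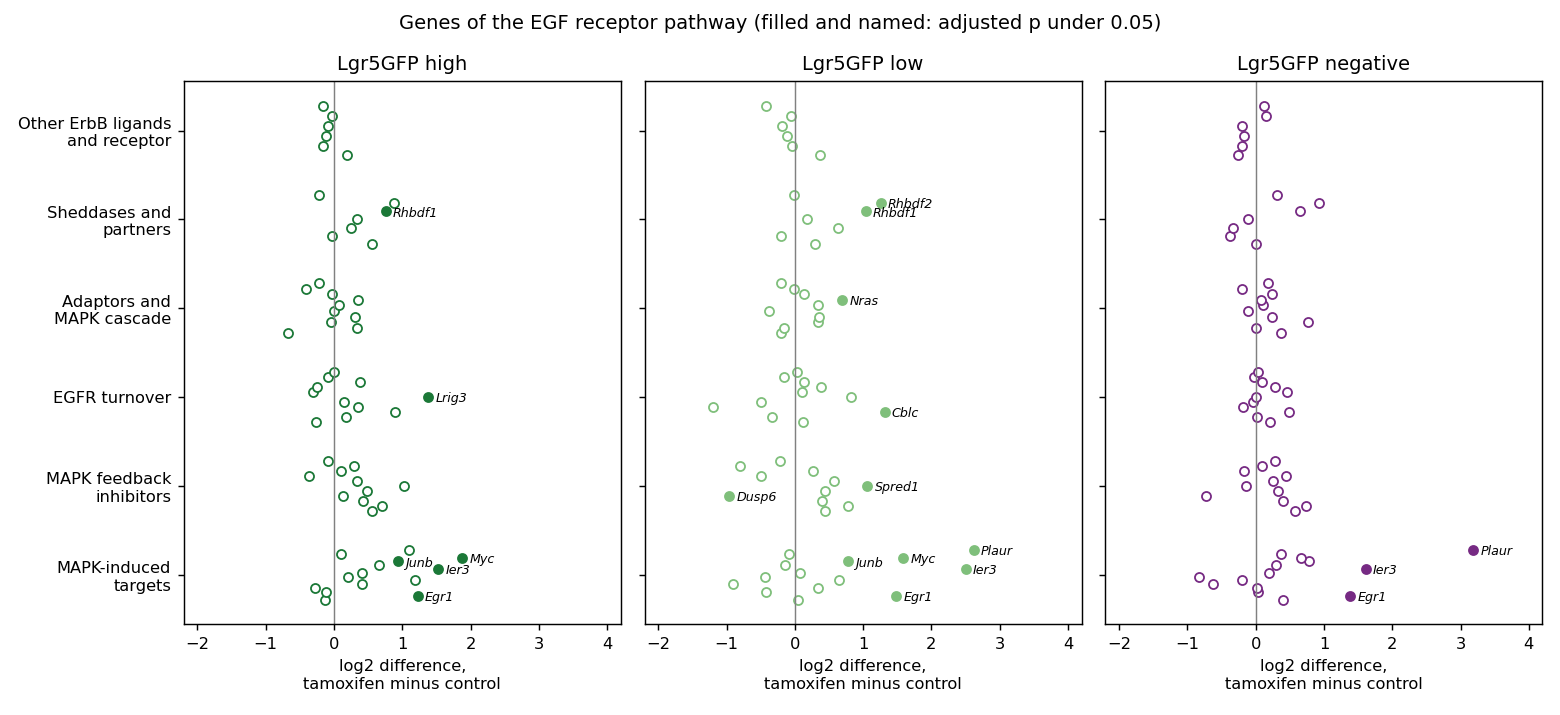
Log2 difference, tamoxifen minus control (x axis), of 59 further pathway genes by list (y axis) in Lgr5GFP high, low and negative cells; each point is a gene, and filled, named points have an adjusted p under 0.05. The points furthest to the right are Plaur in low and negative cells and Ier3 in low cells, and Dusp6 in low cells is the filled point left of 0.

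Between populations of control mice, 4 pathway genes were higher and 6 lower in high than in negative cells, where 4.64% of all genes were called higher and 7.66% lower. Nrg4, a neuregulin that binds Erbb4, was higher in high cells of tamoxifen mice (0.89 ± 0.14, adjusted p = 0.000264) and of control mice (1.16 ± 0.16, adjusted p = 6.52e-05). Cblb, another Cbl ubiquitin ligase, was higher in high cells of tamoxifen mice (2.06 ± 0.25, adjusted p = 1.97e-05) and of control mice (1.90 ± 0.29, adjusted p = 0.000134). Braf, a kinase of the MAP kinase cascade, was higher in high cells of control mice (1.47 ± 0.23, adjusted p = 0.000215), and Lrig3 and Spred1 were lower there (-1.56 and -1.26). Myc was lower in high than in negative cells of tamoxifen mice (-1.08 ± 0.28, adjusted p = 0.015) and of control mice (-2.29 ± 0.32, adjusted p = 7.79e-05). Fos was lower in high cells of control mice (-1.90 ± 0.35, adjusted p = 0.000856). In tamoxifen mice 4 were higher and 3 lower in high than in negative cells (10.3% of all genes called, 3.33% higher and 6.97% lower), among them Dusp6 (1.05 ± 0.18, adjusted p = 0.000681) and Plaur (-2.59 ± 0.39, adjusted p = 0.000198). Low cells differed from negative cells in 1 gene higher and 0 lower in tamoxifen mice (2.24% of all genes called), namely Epgn, which was under background in both groups. In control mice 1 was higher and 2 were lower (5.27% of all genes called), namely Jun, Spred1 and Myc, and 6 in place of 3 were called with the number in the titles as a block. High cells differed from low cells in 2 genes higher and 1 lower in tamoxifen mice (Cblb, Nrg4 and Plaur, against 3.22% of all genes), and in 2 higher and 0 lower in control mice (Braf and Nrg4, against 1.34% of all genes). The low minus negative calls of Myc and Epgn were kept in 0 fits that left out an array, those of Spred1 and Jun in control mice in 1 and 2 of 6, and the control high minus low calls of Braf and Nrg4 in 1 of 6 each. Myc in high minus negative cells of tamoxifen mice stayed called in 6 of 8 such fits, and Cblb, Nrg4, Dusp6 and Plaur stayed called in 8 of 8 for that comparison.

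For each member called in at least 1 comparison, the 3 genes whose log2 signal correlated best with it over the 21 arrays were found among 12882 genes above background. They were Nucb2, Tmem64 and Slc38a5 for Egf (Pearson r 0.881, 0.871 and 0.87), Casp8, Exosc2 and Ddx18 for Btc (0.942, 0.926 and 0.911), and Nab1, Klc3 and Tmem109 for Hbegf (0.883, 0.866 and 0.845). For Egfr they were Wdr43, Noc2l and Gm3336 (0.947, 0.94 and 0.934), and for Erbb2 Gar1, Slk and Cox10 (0.951, 0.942 and 0.94). The 21 points share 6 groups, sorting runs and normalization, so these values describe likeness of pattern on these arrays.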

How the data were processed

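RNA of 21 samples was measured on 1-colour gene arrays. The deposited values are log2 signals of 41345 rows, normalized across arrays by the authors (0.958 to 13.55, array medians 3.95 to 4.25); the submitters' processing notes list RMA, oligo, R 3.2.3 and limma 3.26.8 without role or order. Only the deposited table was used, so no scanner background was available, and the number of arrays limits the precision. The platform annotation named a single gene for 23521 rows, several for 1814 and none for 16010; for the 1082 genes with more than 1 row the brightest by mean was kept, giving 22180 genes. For 23328 rows the gene number was found in RefSeq and the symbol was taken from there, whether or not it differed. A further row that names Egf together with another gene was not used. No gene was left out for a low level.

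Groups came from the submitters' titles and cell population labels. All 21 arrays entered a single fit of 6 group means (limma 3.58.1, lmFit and eBayes, R 4.3.3; 15 residual degrees of freedom, 5.265 prior), with 12 comparisons, two-sided, and Benjamini-Hochberg adjustment over 22180 genes within each; the procedure was tested on simulated data. Alternatives were a cyclic loess, the mean of a gene's rows, eBayes with trend and robust, array weights, fits on the compared groups only, leaving out the dimmest 25% of genes, a random run block, fixed number blocks and leaving out each array. The numbers in the titles, read as sorting runs, were checked by the correlation of arrays' deviations from their group means. In control mice every same-number pair correlated above 0.1 for high with low cells (0.222 to 0.317) and low with negative cells (0.107 to 0.233), which counts as pairing; for high with negative cells 2 of 3 did (0.0918 to 0.172), and in tamoxifen mice 3 of 10 (-0.158 to 0.411). The text names all members; of each pathway list the up to 4 called genes with the smallest adjusted p between treatments and up to 2 between populations; and the 3 genes most like each called member. The members and lists were chosen with earlier results of these data known.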

Additional observations from a re-analysis of the deposited data

Results flagged for a closer look

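In groups of 4 arrays, a value was singled out where its gap to the nearest other array, divided by the group's range, passed Dixon's 95% critical value of 0.829. Of 27 groups of 4 looked at (9 genes in 3 tamoxifen populations), 3 held such a value, and chance alone gives about 1 in 20. All 3 lay in Lgr5GFP low cells of tamoxifen mice. Ereg was 4.50 on array 4 and 3.96 to 4.02 on the other arrays, all near the background guide. Btc was 6.34 on array 3 and 6.06 to 6.09 on the others. Erbb3 was 6.86 on array 3 and 7.41 to 7.49 on the others. Of the interactions tested for the 9 genes, 0 were called.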

How the results depend on the processing

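The differences counted here are those of all 9 members between treatments, and those of Egf, Btc, Egfr and Erbb2 against negative cells. The latter include the interactions with negative cells, and high minus low cells were left out. Each difference was refitted under every other setting and counts once per refit. Settings other than leaving out an array left 399 of 432 refitted values with the same direction and side of the threshold. Of the rest, 17 newly passed it, 5 no longer passed and 11 changed sign. Of the 119 refitted values of differences called in the main fit, 114 stayed called and 0 changed sign. Without single arrays, 56 of 91 refitted values of called differences stayed called and 0 changed sign. The cause of a changed call was not tested. Members called between treatments in high cells fell to 0 of 9 (Egf and Erbb2 lost) with only those groups in the fit, and were 2 in negative cells with array weights, which also gave 1 interaction call (Erbb2, high minus negative, adjusted p = 0.0395). Errfi1 in high cells passed in 5 settings, a cyclic loess, array weights, leaving out the dimmest 25%, a random run block and a replicate block (1.64), and missed in the others; it passed in low cells with the compared groups only (adjusted p = 0.0388) and a replicate block (adjusted p = 0.0338).

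The values that changed sign among the differences counted were uncalled. Between treatments in negative cells they were Ereg at 0.0057 (cyclic loess) and 0.0022 (mean of rows), Btc at -0.0067 (cyclic loess), and Erbb2 at -0.065 (cyclic loess), -0.085 (array weights) and -0.010 (random run block). In tamoxifen mice, low minus negative cells, Erbb2 was 0.067 with array weights and 0.017 with the random run block. Median differences within runs of tamoxifen mice were -0.0020 for Egf and 0.201 for Erbb2 in high minus negative cells, and 0.127 for Erbb2 in low minus negative cells.

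Same-number pairs correlated above 0.1 in 3 of 10 cases in tamoxifen mice and 8 of 9 in control mice, and pairs of other numbers in 14 of 38 in tamoxifen mice and 0 of 18 in control mice. With the replicate number as a replicate block, the members called were 3, 5 and 1 between treatments in high, low and negative cells and 1 between high and negative cells of tamoxifen mice (Egfr), and 1128 in place of 606 genes were called in high cells and 845 in place of 515 in negative cells. With the title number as a block, 1 interaction was called (Erbb2, high minus negative), Btc in control low minus negative cells was not (adjusted p = 0.0505) while Erbb2 there was (adjusted p = 0.0343, and 0.0442 with the replicate number), and in tamoxifen mice Erbb2 was 0.019 in high and 0.294 in low minus negative cells and Egfr 0.033 in low minus negative cells.

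Leaving out each array in turn, the members called ranged from 0 to 4, 1 to 4 and 0 to 2 between treatments in high, low and negative cells, from 3 to 4 and 0 to 4 for high and low minus negative cells of control mice, from 0 to 2 for high minus negative and high minus low cells of tamoxifen mice, and from 0 to 1 for the high minus negative interaction. Among the differences counted, uncalled values that crossed 0 were Tgfa in high cells (-0.029 to 0.276), Btc (-0.066 to 0.176), Erbb2 (-0.177 to 0.160) and Erbb3 (-0.019 to 0.334) in negative cells, Egf (-0.037 to 0.312) in high minus negative, Btc (-0.186 to 0.057) and Erbb2 (-0.164 to 0.174) in low minus negative cells of tamoxifen mice, and Egfr in the high minus negative interaction (-0.028 to 0.853). All genes called then ranged from 215 to 1702 in high, 990 to 1715 in low and 176 to 883 in negative cells. In high cells only 12 were called with those groups alone in the fit, and in negative cells 1621 with array weights; array weights also gave 4810 in place of 2728 genes for high and 2637 in place of 1168 for low minus negative cells of control mice. With only the compared groups, 938 in place of 2283 genes were called for high minus negative cells of tamoxifen mice. Pathway genes called were 0 (compared groups only) to 12 (without an array) in high cells, 7 to 11 in low cells and 1 to 8 in negative cells.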
